A study of Drosophila melanogaster with 10 samples.

Results

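RNA interference and Sting are described here through 8 genes of the fly midgut: Dcr-2, r2d2, AGO2, Dcr-1, loqs, AGO1, Mov10 and Sting. They were taken by symbol from the 14292 genes obtained by adding up transcript values, and all 8 were measured. The set was selected on measured values: it was put together with the TPM differences between the groups described here already known, the very large one of Mov10 among them. The differences of the 8 genes between the groups are therefore descriptions. No p is given for them, and the count past a threshold stands only beside the share of all genes, with nothing read from it.

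The libraries were made from midguts of adult male Drosophila melanogaster, fed nothing but yeast up to day 7 after eclosion. Both groups carried the Dredd D44 mutation and the driver mex-GAL4, and differed in UAS-PGRP-LE. Dredd is the caspase through which the IMD immune pathway activates its transcription factor Relish, and mex-GAL4 drives transgenes in the absorptive enterocytes. Controls had mex-GAL4/+ (mex>+). The other group had mex-GAL4/UAS-PGRP-LE (mex>PGRP-LE) and so overexpressed PGRP-LE, a sensor of bacterial peptidoglycan. Each genotype had 5 libraries, described by the submitters as biological replicates, with RNA from 20 midguts. Both groups are mutant for Dredd, so no library shows the genes with that caspase intact, and the driver was present in both. No group carried UAS-PGRP-LE without the driver. The expression of the transgene and the chromosome that carries it differed together between the groups, so their parts cannot be told apart.

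RNA interference uses double-stranded RNA as its guide. In flies the nuclease Dicer-2 cuts long double-stranded RNA, such as that of replicating viruses, into small interfering RNAs, R2D2 helps to pass these to Argonaute-2, and Argonaute-2 cuts the matching RNA. A parallel set of proteins, Dicer-1, Loquacious and Argonaute-1, makes and uses microRNAs. Sting is a receptor of cyclic dinucleotides in the membrane of the endoplasmic reticulum, and in flies it acts against viruses through the kinase IKKbeta and Relish.

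Expression was given as TPM, a unit scaled to the same total in every library and corrected for transcript length, so levels of different genes can be set side by side. TPM keeps no record of sequencing depth, which is therefore unknown. PGRP-LE itself spanned 35.9 to 41.8 TPM over the controls and 4257 to 5030 TPM over the overexpression libraries, in the order the labels give. Dredd transcripts were present in both groups, at 23.2 ± 2.01 and 33.0 ± 2.15 TPM (SD, n = 5; limma adjusted p = 3.43e-05). The enterocyte gene mex1 was present in both groups, at 512 ± 51.2 and 655 ± 32.4 TPM (SD, n = 5). Genes were compared as log2(TPM + 1) with limma over 8722 genes that reached 1 TPM in at least 5 of the 10 libraries, at a Benjamini-Hochberg adjusted p of 0.05. Of these, 62.9% passed the threshold, 40.1% upward and 22.8% downward, so a call is the usual case in this comparison. Under median-of-ratios rescaling the calls numbered 2753 upward and 2717 downward, against 3499 and 1991 in the TPM as deposited.

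Mov10 went from the lowest of the 8 genes to the highest, Sting and Dcr-2 stood higher with PGRP-LE, r2d2 and loqs stood slightly lower, and the groups overlapped for AGO2, AGO1 and Dcr-1. All 8 genes met the level for testing, Mov10 only with the help of the libraries with PGRP-LE. In the fit across all genes 5 of them lay past the threshold, 3 upward and 2 downward, beside 62.9% of all tested genes. The groups did not overlap for the same number, 5 of 8, beside 48.3% of all tested genes. Of the 5, 3 lay above and 2 below the controls, beside 31.3% and 17% of all tested genes. The median difference of the 8 was -0.01 on the log2 scale, and that of all tested genes was 0.09. After rescaling to spike-ins 3 of the 8 genes lay past the threshold, all upward, beside 4232 of the 8722 tested genes, 2583 upward and 1649 downward.

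**Figure D1:**
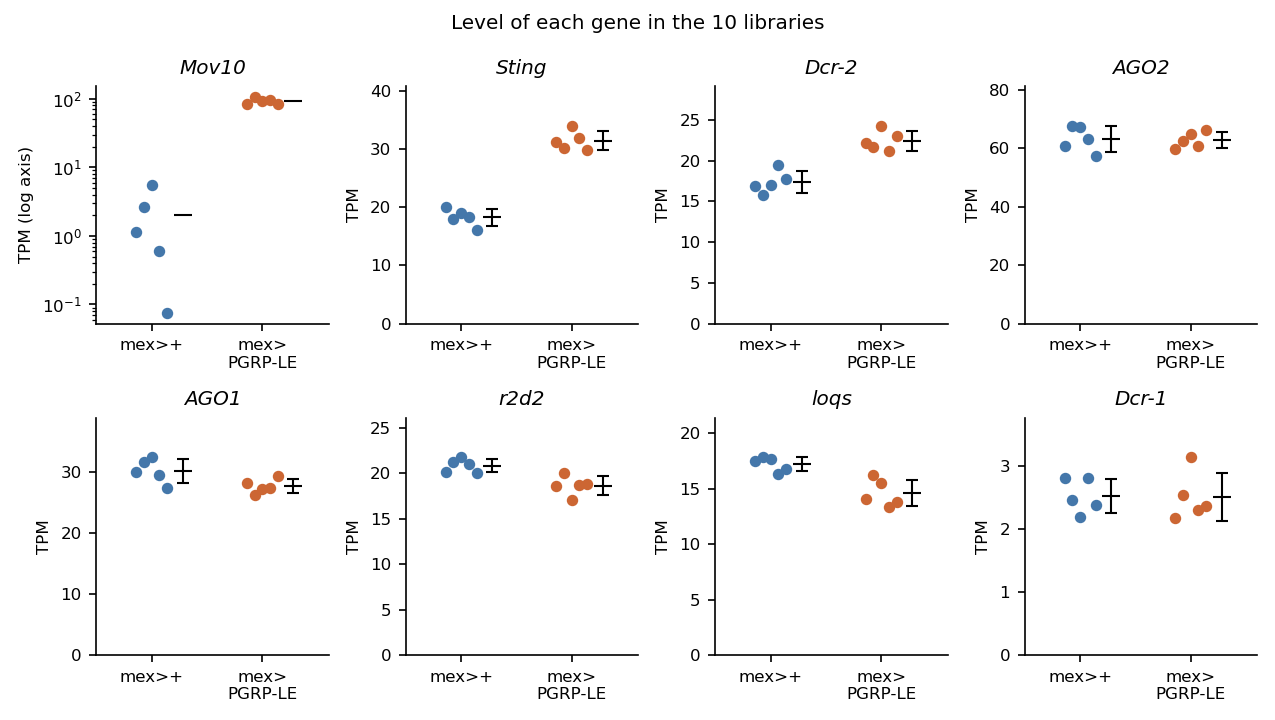
Level of each of the 8 genes in TPM, with 1 point per library (5 mex>+ in blue, 5 mex>PGRP-LE in orange). Horizontal marks are group means and bars are SD; Mov10 is on a log axis and its mean is drawn without a bar. Mov10 lies at or below 5.47 TPM in controls and at or above 83.1 TPM with PGRP-LE, and Sting and Dcr-2 are also higher without overlap.

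The antiviral branch begins with Dcr-2, which encodes the Dicer that processes long double-stranded RNA. Dcr-2 (FBgn0034246, chromosome 2R, 17574979 to 17581525, minus strand, BDGP6) read 16.9, 15.8, 17.0, 19.4 and 17.7 TPM in control replicates 1 to 5. It read 22.1, 21.7, 24.3, 21.2 and 23.03 TPM in mex>PGRP-LE replicates 1 to 5. Every library with PGRP-LE lay above every control. The group means were 17.4 ± 1.34 and 22.5 ± 1.22 TPM (SD, n = 5), a ratio of 1.29 and a log2 difference of 0.35 ± 0.06 (SE).

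Its partner r2d2, which encodes a double-stranded RNA-binding protein, did not share that direction. r2d2 (FBgn0031951, 2L, 7800147 to 7802098, plus strand) stood at 20.2, 21.2, 21.8, 21.0 and 20.0 TPM in the controls and at 18.6, 20.0, 17.1, 18.7 and 18.8 TPM with PGRP-LE. The groups came close to touching, since the lowest control was at 20.04 and the highest overexpression library at 20.03 TPM. The log2 difference was -0.15 ± 0.05, from a mean of 20.9 ± 0.732 to 18.7 ± 1.04 TPM (SD, n = 5).

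AGO2, the Argonaute that carries small interfering RNAs, was the most abundant of the 8 genes in controls. AGO2 (FBgn0087035, 3L, 15554113 to 15561042, plus strand) ranged from 57.3 to 67.7 TPM in controls and from 59.8 to 66.2 TPM with PGRP-LE, so the control range enclosed the other. The means were 63.2 ± 4.40 and 62.7 ± 2.69 TPM (SD, n = 5), with a log2 difference of -0.01 ± 0.05. Thus Dcr-2, r2d2 and AGO2, which act one after the other on the same RNA, stood higher, stood lower and overlapped between the groups, in that order.

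In the microRNA branch the groups overlapped for Dcr-1 and AGO1, and loqs stood slightly lower. Dcr-1 (FBgn0039016, 3R, 22734007 to 22741091, minus strand), the Dicer of microRNA precursors, was scarce, at 2.53 ± 0.274 TPM in controls and 2.51 ± 0.381 TPM with PGRP-LE (SD, n = 5). Its libraries overlapped, between 2.19 and 2.81 TPM and between 2.18 and 3.15 TPM. AGO1 (FBgn0262739, 2R, 13943387 to 13958089, minus strand), the Argonaute of microRNAs, read 30.0, 31.6, 32.4, 29.5 and 27.2 TPM in controls and 28.2, 26.1, 27.2, 27.3 and 29.3 TPM with PGRP-LE. Its groups overlapped and the log2 difference was -0.12 ± 0.05. The difference was -0.22 under median-of-ratios rescaling and -0.19 under quantile normalization.

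loqs, whose proteins partner with either Dicer, had the largest downward difference of the 8 genes. loqs (FBgn0032515, 2L, 13382652 to 13385671, plus strand) read 17.5, 17.9, 17.6, 16.3 and 16.8 TPM in controls and 14.1, 16.2, 15.5, 13.4 and 13.8 TPM with PGRP-LE. No library with PGRP-LE reached the lowest control, at 16.3 TPM, but replicate 2 came near it. The means were 17.2 ± 0.634 and 14.6 ± 1.19 TPM (SD, n = 5), a log2 difference of -0.23 ± 0.06.

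**Figure D2:**
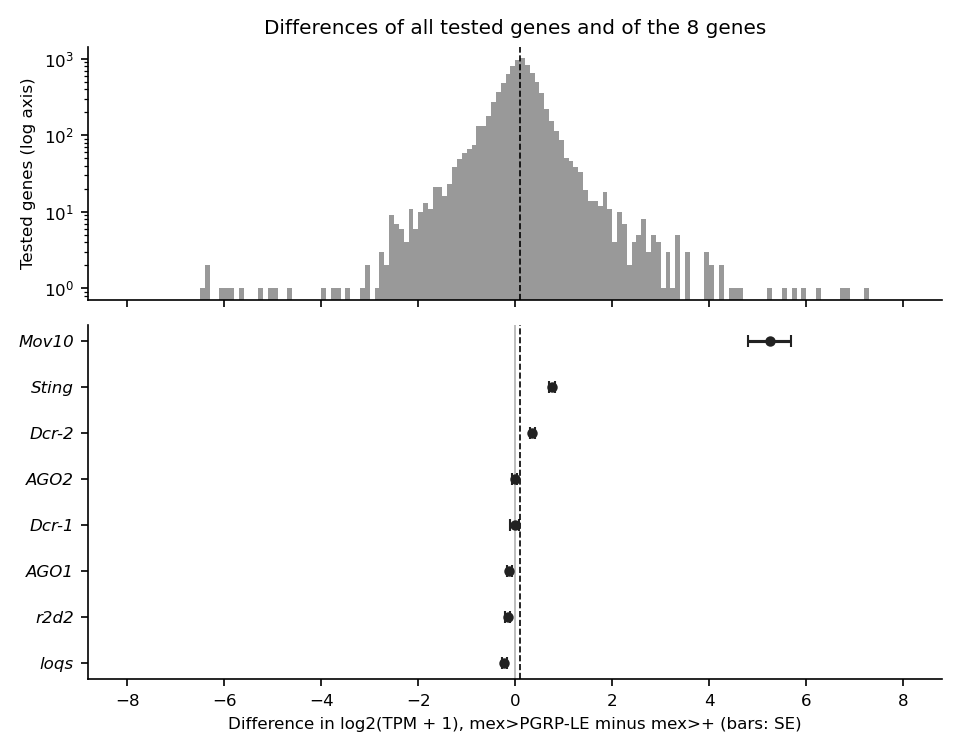
Differences in log2(TPM + 1), mex>PGRP-LE minus mex>+, for all 8722 tested genes (top, histogram with a log axis for the number of genes) and for the 8 genes (bottom, points with SE). The dashed line is the median of all tested genes, 0.09; Mov10, at 5.25, stands in the far upper tail, and the other 7 genes lie between -0.23 and 0.75.

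Mov10 encodes an RNA helicase. Its human relative MOV10 binds Argonaute proteins and restrains retroviruses and retrotransposons. Mov10 (FBgn0034187, 2R, 17062775 to 17066546, plus strand) read 1.15, 2.63, 5.47, 0.595 and 0.0757 TPM in control replicates 1 to 5. It read 83.1, 106.8, 92.2, 95.7 and 83.1 TPM in mex>PGRP-LE replicates 1 to 5. The lowest library with PGRP-LE was 15.2 times the highest control.

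The means of Mov10 were 1.98 ± 2.17 and 92.2 ± 9.89 TPM (SD, n = 5), a ratio of 46.4 and a log2 difference of 5.25 ± 0.44 (SE). That difference was number 8 from the top among the 8722 tested genes. The ratio rests on a control level that was low and uneven: the coefficient of variation was 109% in controls and 10.7% with PGRP-LE. Control replicate 3 held the highest value, and without it the control mean was 1.11 ± 1.10 TPM (SD, n = 4) and the ratio 82.9. In that library Mov10 equalled 5.94% of the overexpression mean, and PGRP-LE stood at 41.8 TPM there, against 35.9 to 39.2 TPM in the other controls. Why Mov10 stood higher in that control was not tested. Mov10 reached 1 TPM in 3 of the 5 controls and in all libraries with PGRP-LE.

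Mov10 changed its place among the 8 genes. In controls the order of levels ran from AGO2 through AGO1, r2d2, Sting, Dcr-2, loqs and Dcr-1 to Mov10. In that order Sting overlapped with Dcr-2, Dcr-2 with loqs, and Dcr-1 with Mov10, and no other neighbours overlapped. With PGRP-LE the order was Mov10, AGO2, Sting, AGO1, Dcr-2, r2d2, loqs and Dcr-1, and no neighbours overlapped. Ordered by the size of the difference, the nearest genes to Mov10 were CG33468 and CG14810 above it, at 5.79 and 5.51, and GstD4 and GstD2 below it, at 4.62 and 4.56 on the log2 scale. Both of the latter encode glutathione S-transferases, and CG14810 was below 1 TPM in every control. This likeness covers only the difference between 2 groups.

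Beside Mov10, the neighbouring gene CG8950 rose. CG8950 (FBgn0034186, 2R, 17059331 to 17062634, minus strand) lies head to head with Mov10, with 140 bases between the annotated ends of the 2 genes. CG8950 read 2.90, 3.49, 4.83, 3.42 and 2.43 TPM in controls and 37.4, 53.3, 47.0, 42.0 and 35.5 TPM with PGRP-LE. Its log2 difference was 3.33 ± 0.15 (SE; limma adjusted p = 1.72e-08), from a mean of 3.41 ± 0.902 to 43.0 ± 7.28 TPM (SD, n = 5). In controls both genes were highest in replicate 3 and lowest in replicate 5, and with PGRP-LE both were highest in replicate 2. The lowest library with PGRP-LE was replicate 1 for Mov10 and replicate 5 for CG8950. On the other side, CG30460 overlaps the last 576 bases of Mov10 on the opposite strand and read 9.38 ± 0.577 and 8.57 ± 0.632 TPM (SD, n = 5; log2 difference -0.12, limma adjusted p = 0.108).

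Farther out, the differences were smaller and mixed. Within 100 kb of the start of Mov10 lay 29 other tested genes, a window chosen after CG8950 had been seen. Of these 11 rose, 6 fell and 12 did not pass the threshold, while 40.1% of all tested genes rose and 22.8% fell. The differences of the 29 ran from -2.15 to 1.63 on the log2 scale. Of the 8 genes, 4 lie on chromosome arm 2R, where 64.3% of tested genes passed the threshold, against 62.6% elsewhere.

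**Figure D3:**
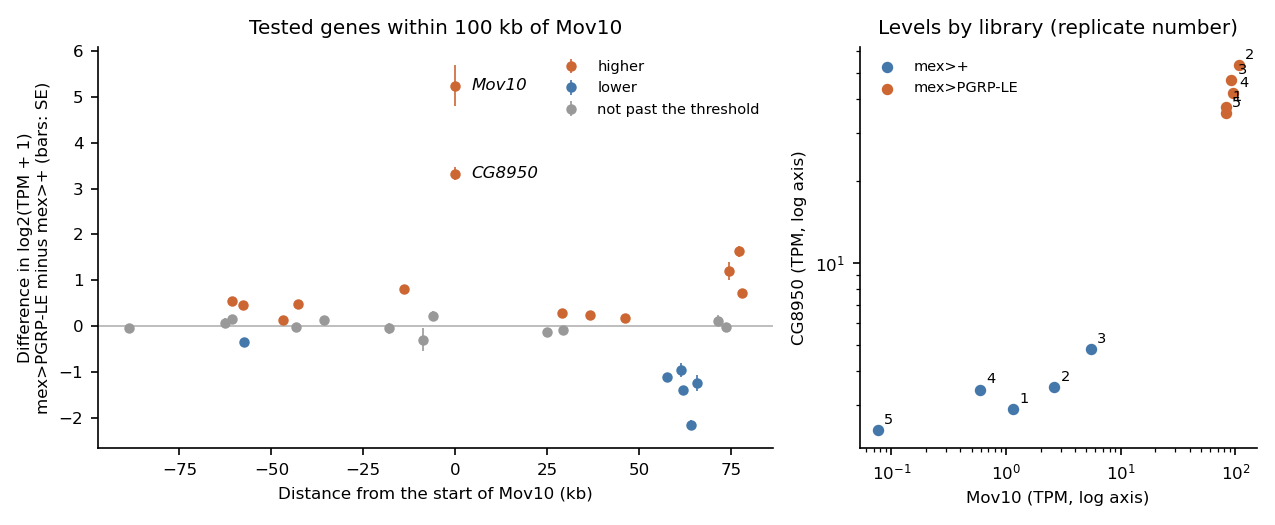
Left: difference in log2(TPM + 1), mex>PGRP-LE minus mex>+, with SE, for tested genes by the distance of their start from that of Mov10 in kb, coloured by call. Right: level of CG8950 against that of Mov10 in each library, both in TPM on log axes, labelled with replicate numbers. Mov10 and CG8950 stand at 5.25 and 3.33, and no other gene in the window exceeds 1.63.

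Sting stood higher in every library with PGRP-LE. Sting (FBgn0033453, 2R, 9842686 to 9845512, plus strand) read 20.0, 18.0, 19.0, 18.3 and 16.1 TPM in controls and 31.2, 30.2, 34.1, 31.9 and 29.8 TPM with PGRP-LE. The highest control and the lowest overexpression library were well apart. The means were 18.3 ± 1.47 and 31.5 ± 1.67 TPM (SD, n = 5), a ratio of 1.72 and a log2 difference of 0.75 ± 0.06 (SE). It was number 598 from the top, so many genes differed by more.

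The genes on either side of Sting rose. Vamp7, a SNARE gene of vesicle fusion, lies head to head with Sting, with 183 bases between them, and went from 55.4 ± 2.67 to 79.6 ± 4.02 TPM (SD, n = 5; log2 difference 0.51 ± 0.05, limma adjusted p = 2.71e-06). Orc6, which encodes a subunit of the origin recognition complex, overlaps the end of Sting by 55 bases on the opposite strand and went from 1.41 ± 0.405 to 3.72 ± 0.424 TPM (log2 difference 0.98 ± 0.11, limma adjusted p = 1.1e-05). Over the 15 tested genes that flank the 8 genes, 7 rose and 4 fell, beside 40.1% and 22.8% of all tested genes. The nearest genes to Sting in the order of differences were P32 and phr6-4 above it and Pp1-87B and Tsp42Er below it, between 0.75 and 0.76 on the log2 scale, with phr6-4 below 1 TPM in every control. The sources used here do not say how the kallisto run treated strand, so reads from overlapping ends may not have been told apart.

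Transcripts added detail that the sums per gene hide. The files list 23 annotated transcripts of the 8 genes, and 15 held at least 10% of their gene's TPM on average in either group. These values are estimates that divide reads among overlapping transcripts, and they are given without a test.

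Sting had 2 transcripts, and its minor one differed more. Sting-RC read 2.62, 1.08, 0.89, 0.62 and 1.52 TPM in controls and 4.69, 5.73, 5.76, 7.47 and 4.55 TPM with PGRP-LE, a ratio of means of 4.19. Sting-RB, the major one, went from 16.9 ± 1.41 to 25.8 ± 1.63 TPM (SD, n = 5), a ratio of 1.52. Both lay above the controls without overlap. The share of Sting-RC in the gene was 7.32% ± 3.93 in controls and 17.9% ± 3.46 with PGRP-LE (SD, n = 5), and the shares of the groups did not overlap.

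Of the 6 loqs transcripts, loqs-RB was the one whose groups did not overlap. loqs-RB encodes the Loqs-PB protein, the partner of Dicer-1, and went from 8.51 ± 0.846 to 6.39 ± 0.227 TPM (SD, n = 5), below every control. loqs-RD encodes Loqs-PD, which works with Dicer-2 on small interfering RNAs made from the fly's own transcripts, and stood at 2.13 ± 0.186 and 2.17 ± 0.511 TPM, with overlap. The share of loqs-RB was 49.4% ± 4.89 and 43.9% ± 3.84, that of loqs-RA 23.3% ± 1.58 and 22.6% ± 2.08, and that of loqs-RD 12.4% ± 0.852 and 14.8% ± 2.96. The shares overlapped for all 3.

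AGO2-RE made up a larger mean share of AGO2 with PGRP-LE, with overlap between the groups. AGO2-RE read 6.78, 16.9, 5.62, 4.77 and 7.60 TPM in controls and 16.4, 15.1, 9.07, 21.2 and 19.4 TPM with PGRP-LE. Control replicate 2 lay among the libraries with PGRP-LE, so the groups overlapped. The share of AGO2-RB was 79.6% ± 6.34 and 68.3% ± 6.33, and that of AGO2-RE 13.1% ± 7.03 and 26.0% ± 7.72 (SD, n = 5).

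The remaining genes were mostly read from 1 or 2 transcripts. AGO1-RD held 83.9% ± 1.13 and 87.3% ± 2.39 of AGO1, and AGO1-RB 16.1% ± 1.13 and 12.7% ± 2.39, in controls and with PGRP-LE. Mov10-RC held 81.3% ± 19.6 and 80.1% ± 3.21 of Mov10 and Mov10-RD the rest, with a wider spread in controls. Dcr-2-RA held 96.4% ± 2.38 and 95.0% ± 2.20 of Dcr-2. The shares of r2d2-RA were 57.2% ± 6.95 and 61.4% ± 4.51, and those of r2d2-RB 39.9% ± 8.29 and 36.3% ± 4.15. The libraries overlapped in each of these shares.

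**Figure D4:**
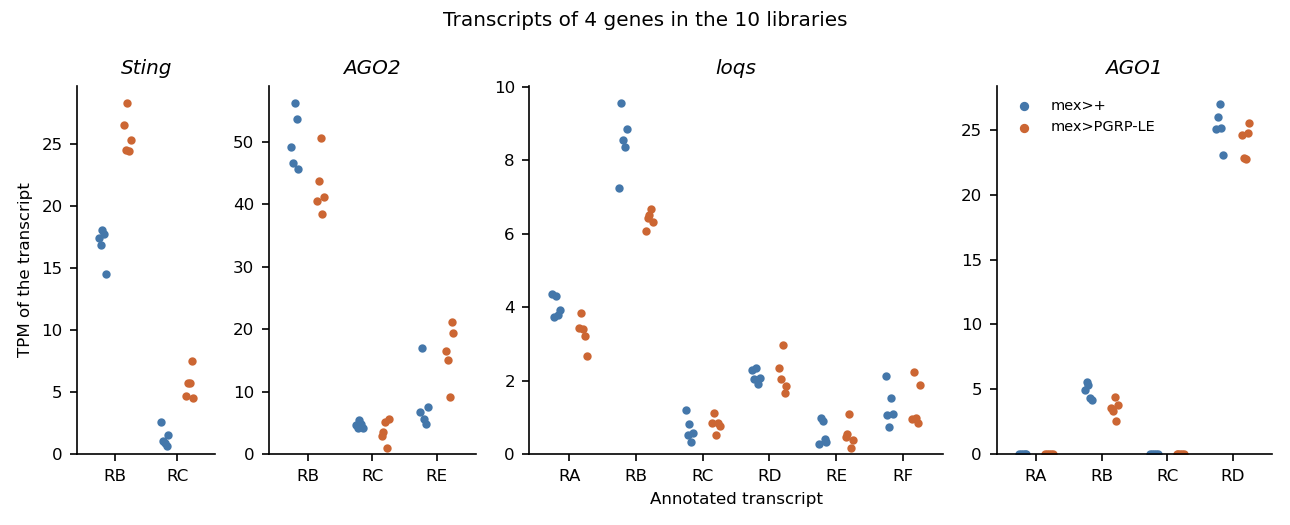
TPM of each annotated transcript of Sting, AGO2, loqs and AGO1, with 1 point per library (mex>+ in blue, mex>PGRP-LE in orange). Sting-RC averages 1.34 and 5.64 TPM, loqs-RB lies lower with PGRP-LE without overlap, and 1 control library of AGO2-RE, at 16.9 TPM, lies among the libraries with PGRP-LE.

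In the authors' deposited table the log2 fold changes of the 8 genes fell in the same order. They were 5.50 for Mov10, 0.76 for Sting, 0.35 for Dcr-2, -0.04 for AGO2, -0.07 for Dcr-1, -0.13 for AGO1, -0.14 for r2d2 and -0.28 for loqs in the authors' deposited table.

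Outside the 8 genes, 5 lists of related genes were read from the same fit. In the small RNA biogenesis and RISC list, 11 of 23 tested genes rose, 3 fell and 9 did not pass the threshold, 60.9% called beside 62.9% of all tested genes. The median difference was 0.11, and 8 rose and 4 fell under median-of-ratios rescaling and under quantile normalization. The cochaperone genes p23 and Stip1, whose proteins work with Hsp90 and help to load Argonautes, both rose. The level of p23 was 135 ± 4.93 TPM in controls and 187 ± 5.05 TPM with PGRP-LE, and that of Stip1 was 59.0 ± 2.71 and 82.1 ± 5.15 TPM (SD, n = 5; limma adjusted p = 1.62e-06 and 1.03e-05). Among other chaperone genes of the list, Droj2 rose (limma adjusted p = 0.000413). Hsp83, the Hsp90 gene, Hsc70-4 and DnaJ-1 did not pass the threshold (limma adjusted p = 0.0708, 0.18 and 0.976). Cbp20, a subunit of the nuclear cap-binding complex, rose from 26.4 ± 1.88 to 39.8 ± 2.44 TPM (limma adjusted p = 5.41e-06). The nuclease gene drosha and its partner pasha, which begin microRNA processing, differed: drosha fell from 5.44 ± 0.378 to 4.40 ± 0.240 TPM (log2 difference -0.25, limma adjusted p = 0.00299), and pasha read 3.51 ± 0.211 and 3.57 ± 0.429 TPM (limma adjusted p = 0.852).

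The list of Sting signalling and its outputs had the highest share of calls of the 5 lists. Of 10 tested genes 7 rose and 2 fell, 90% called beside 62.9% of all tested genes. The 7 include cGlr1, which was tested only because of the libraries with PGRP-LE. The median difference of the list was 0.21. Srg3 and Nazo, both known in flies as genes that Sting switches on, had the smallest p among the risers. Srg3 read 50.3, 35.3, 34.8, 31.1 and 35.5 TPM in controls and 201, 207, 213, 228 and 191 TPM with PGRP-LE (log2 difference 2.46 ± 0.11, limma adjusted p = 8.39e-09). Nazo read 33.5, 21.0, 16.1, 19.2 and 12.5 TPM in controls and 81.3, 76.7, 93.7, 97.3 and 97.0 TPM with PGRP-LE (log2 difference 2.14 ± 0.22, limma adjusted p = 1.76e-05). Neither overlapped between the groups.

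The rest of that list was mixed. Srg2, of the same kind, stood at 168 ± 22.6 and 171 ± 14.0 TPM (SD, n = 5; limma adjusted p = 0.792), and Srg1 was below the level for testing. Rel, which encodes Relish, fell from 69.4 ± 7.59 to 48.9 ± 4.75 TPM (log2 difference -0.50 ± 0.08, limma adjusted p = 0.000221). Of the cyclic dinucleotide synthases upstream of Sting, cGlr1, which senses double-stranded RNA, rose, from between 0.185 and 1.08 TPM in controls to between 1.84 and 18.4 TPM with PGRP-LE (log2 difference 2.18 ± 0.49, limma adjusted p = 0.00385). It reached 1 TPM in 1 of the 5 controls. Its sister gene cGlr2 rose from 53.6 ± 5.74 to 67.9 ± 3.73 TPM (limma adjusted p = 0.00102). Under median-of-ratios or spike-in rescaling 4 of the 10 genes rose and 2 fell, beside 5470 and 4232 calls among all 8722 tested genes. A required mean level of 5 TPM left out cGlr1. Of the 9 genes then tested 6 rose and 2 fell, beside 4570 calls among 6809 genes in all.

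Antiviral factors outside RNA interference gave 5 rises and 1 fall among 11 tested genes, 54.5% called beside 62.9% of all tested genes. The median was 0.10. Median-of-ratios rescaling gave 3 and 2, and quantile normalization 5 and 2. pst, a known restriction factor of picorna-like viruses in flies, rose from 462 ± 49.9 to 943 ± 75.8 TPM (SD, n = 5; log2 difference 1.03 ± 0.08, limma adjusted p = 4.03e-07). vir-1, a gene named for its induction by virus, fell from 222 ± 20.8 to 124 ± 19.0 TPM (limma adjusted p = 1.51e-05). dome, the JAK/STAT receptor gene, rose from 12.0 ± 0.593 to 14.6 ± 0.761 TPM (limma adjusted p = 0.000686). Vago, which encodes a secreted antiviral protein, read 4.74 ± 0.633 and 4.14 ± 0.669 TPM (limma adjusted p = 0.193).

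The mRNA decay and P-body list includes helicases of the Upf1 family, to which Mov10 belongs. Of its 20 tested genes 9 rose and 3 fell, 60% called beside 62.9% of all tested genes. The median was 0.12. Median-of-ratios rescaling gave 6 and 6, quantile normalization 8 and 6, and rescaling to spike-ins 2 and 2. The P-body helicase gene me31B rose from 51.6 ± 2.07 to 70.8 ± 3.47 TPM (SD, n = 5; limma adjusted p = 5.01e-06). The deadenylase gene Pop2 rose from 22.5 ± 0.758 to 26.7 ± 1.42 TPM, while the decapping gene Edc3 fell from 8.46 ± 0.901 to 6.43 ± 0.667 TPM (limma adjusted p = 0.000909 and 0.00229). armi, the fly gene of the same helicase family that serves the piRNA pathway, rose from 1.41 ± 0.177 to 2.05 ± 0.302 TPM (log2 difference 0.33 ± 0.08, limma adjusted p = 0.00365). Upf1 rose by 0.17 on the log2 scale (limma adjusted p = 0.0132).

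The piRNA pathway, which silences transposons mainly in the germline, was represented in part. Of 29 listed genes 14 met the level for testing, and 13 averaged under 1 TPM in both groups. tej and vret, Tudor-domain genes, were tested only because of the libraries with PGRP-LE, since both were below 1 TPM in every control. Of the other 12 genes, 3 rose and 3 fell, beside 40.1% and 22.8% of all tested genes. Among the untested genes, piwi and AGO3 averaged 0.0653 and 0.212 TPM in controls and 0.0822 and 0.157 TPM with PGRP-LE, with overlap. aub, vas, zuc, shu, cuff, mael and fs(1)Yb, also untested, lay above the controls without overlap, SoYb lay below, and the other untested genes overlapped. Of all tested genes 31.3% lay above and 17% below without overlap. That share was not counted for genes as low as these, so nothing is read from their directions. For instance, shu averaged 0.131 and 1.31 TPM, and SoYb 0.893 and 0.248 TPM. tej averaged 0.0524 ± 0.0290 and 1.48 ± 0.274 TPM, and vret 0.360 ± 0.0393 and 1.47 ± 0.293 TPM (SD, n = 5). tud fell from 39.0 ± 1.19 to 26.0 ± 1.83 TPM (limma adjusted p = 1.85e-06).

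**Figure D5:**
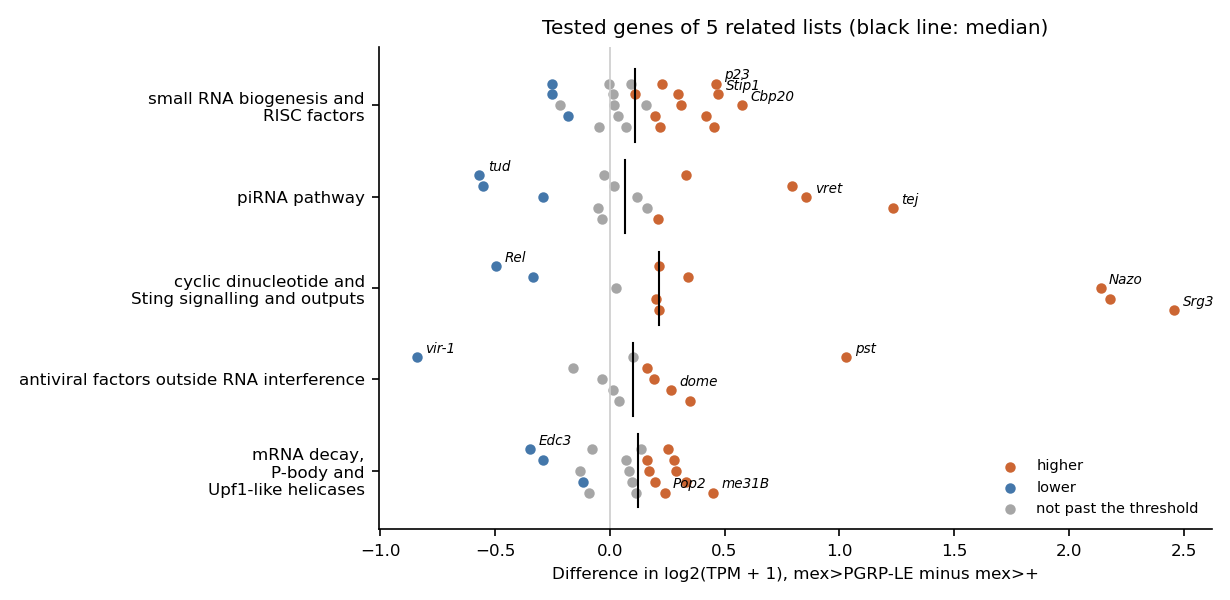
Difference in log2(TPM + 1), mex>PGRP-LE minus mex>+, for each tested gene of the 5 lists, coloured by call at a limma adjusted p of 0.05; the vertical position within a list has no meaning, black lines are medians, and the 3 genes with the smallest p in each list are named. Srg3, Nazo and pst stand at 2.46, 2.14 and 1.03, while the medians run from 0.07 to 0.21; tej and vret, in the piRNA list, were below 1 TPM in every control.

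Markers of gut progenitor cells moved in the same direction as Mov10, Sting and Dcr-2. Of 8 progenitor markers 7 rose, beside 40.1% of all tested genes. The 7 include zfh2, which reached 1 TPM in 3 of the 5 controls and met the filter only with the help of the libraries with PGRP-LE. esg rose from 8.40 ± 0.653 to 21.7 ± 1.39 TPM (SD, n = 5; limma adjusted p = 1.21e-08). The summed level of the 8 spanned 23.03 to 28.6 TPM over the controls and 73.6 to 92.6 TPM over the overexpression libraries, and no marker was at 0. The eighth marker, N, stood at 0.768 ± 0.0442 and 1.57 ± 0.0346 TPM, and was tested only because its libraries with PGRP-LE passed the filter. The part of progenitor cells in the levels of the 8 genes was not tested. In whole midguts, fewer cells of a type and less RNA per cell cannot be told apart. Of 7 enterocyte markers 5 rose and 2 fell, beside 40.1% and 22.8% of all tested genes. Tsp2A rose most clearly, from 325 ± 31.0 to 636 ± 38.6 TPM (limma adjusted p = 2.31e-07). The enterocyte sum was lower with PGRP-LE without overlap, at 22129 to 25530 TPM in controls and 19784 to 21884 TPM. Most of it came from the trypsin gene alphaTry, which fell from 20493 ± 1354 to 16099 ± 701 TPM (limma adjusted p = 0.000155).

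Markers of other cells were read in the same way, beside the 40.1% of all tested genes that rose and the 22.8% that fell. Of 8 enteroendocrine markers 2 rose and 1 fell, CCHa1 with the smallest p (log2 difference 0.59 ± 0.08, limma adjusted p = 4.04e-05). Their sums were 506 to 588 TPM in controls and 530 to 589 TPM with PGRP-LE. Of 7 visceral muscle markers 1 fell, Mhc, by 0.37 on the log2 scale (limma adjusted p = 0.00557), with sums of 2493 to 3081 TPM and 2545 to 3147 TPM. Haemocyte markers summed to 100.1 to 118 TPM in controls and 74.8 to 80.0 TPM with PGRP-LE, mostly from crq, which fell by 0.55 on the log2 scale (limma adjusted p = 8.4e-07). Of the 3 haemocyte markers tested 2 fell and 1 rose, Pxn, from 5.51 to 7.15 TPM (limma adjusted p = 0.0254). Below the level for testing, Hml, a defining marker, averaged 0.0742 and 0.0218 TPM, and NimC1 averaged 0.0958 and 0.492 TPM.

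Malpighian tubule markers summed to 82.9 to 179 TPM and 57.5 to 95.6 TPM, and 2 of 5 tested fell, Oat by 0.54 on the log2 scale (limma adjusted p = 6.15e-05). Uro and salt varied widely between libraries and did not pass (limma adjusted p = 0.204 for each). Uro spanned 6.5 to 69.3 TPM in controls and 0 to 25.2 TPM with PGRP-LE, and salt 3.16 to 41.4 and 1.68 to 17.0 TPM. Neuronal markers summed to 6.01 to 7.21 TPM and 4.45 to 5.73 TPM, and nSyb fell by 0.58 on the log2 scale (limma adjusted p = 6.87e-05). elav did not pass the threshold, and Syt1, at 0.933 ± 0.0352 and 1.18 ± 0.155 TPM, was tested only through the libraries with PGRP-LE. Fat body markers summed to 7.44 to 14.7 TPM and 2.86 to 13.7 TPM, and neither of the 2 tested passed; the one with the smaller p was apolpp, at 7.10 ± 2.39 and 4.77 ± 3.61 TPM (SD, n = 5; limma adjusted p = 0.191). Testis markers summed to at most 0.842 TPM in any library, with Mst84Da listed at 0. The part of these cells in the levels of the 8 genes was likewise not tested.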

How the data were processed

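The authors deposited a table of TPM per annotated transcript for 10 libraries (31181 rows, 92 of them ERCC spike-ins) and a second table that compares the groups. For each gene that second table, also deposited by the authors, holds log2 fold changes and p-values. Per the submitters' processing notes, reads went through kallisto, edgeR, Trim Galore and FastQC on build BDGP6, with no version or setting listed, and the title of the deposited tables names RUVSeq. The libraries came from polyA RNA with a stranded kit, per the labels' protocols. Of 31089 transcript rows, 31048 matched the Ensembl release 115 annotation of BDGP6.54, the source of all coordinates, and were summed to 14292 genes. Genes were tested two-sided on log2(TPM + 1), a scale that understates changes of low genes, with limma 3.58.1 (trend and robust; R 4.3.3). The procedure was tested on simulated data in which only a small part of the genes was changed. Here 62.9% of tested genes were called, so that test gives no error rate for these calls.

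The genes, lists and tests were chosen with earlier results of these data known. Named were the 8 genes, PGRP-LE, Dredd, the 3 genes with the smallest p in each list (1 for each cell type), the flanking genes, the nearest genes in the order of differences, and transcripts with a share of at least 10%. mex1, drosha, pasha, piwi, AGO3, armi, Upf1, Srg1, Srg2, cGlr1, cGlr2, Vago, alphaTry, N, zfh2, elav, Syt1, Hml and Mst84Da were added after their values were seen. So were Pxn, NimC1, aub, vas, zuc, shu, cuff, mael, fs(1)Yb and SoYb. Other pseudocounts, filters, scalings and fits, the replicate number as a block, and omission of each library were tried. With 5 libraries per group, p-values cover the spread between these samples.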

Additional observations from a re-analysis of the deposited data

Results flagged for a closer look

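Among 118 sets of 5 libraries, the levels of the named genes and the shares of their named transcripts in each group, 4 held a library far from the other 4. Chance gives about 1 in 20. None of the 4 belonged to the 8 genes or the shares of their transcripts. Srg3 stood at 50.3 TPM in control replicate 1, against 31.1 to 35.5 TPM in the other controls. vret stood at 0.292 TPM in control replicate 3, against 0.362 to 0.387 TPM. Edc3 stood at 7.60 TPM in mex>PGRP-LE replicate 5, against 5.96 to 6.29 TPM. GstD2 stood at 2471 TPM in mex>PGRP-LE replicate 3, against 1365 to 1618 TPM.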

How the results depend on the processing

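The 8 genes kept the sign of their difference under every alternative run, except AGO2 and Dcr-1, whose differences near 0 turned positive when some single libraries were left out (up to 0.02 for each). A pseudocount of 0.1 gave 6.28 for Mov10 and a pseudocount of 5 gave 3.84, and 0.65 for Sting. Median-of-ratios rescaling, which centres the median gene, gave -0.22 for AGO1, -0.11 for AGO2, 0.26 for Dcr-2, -0.25 for r2d2, -0.32 for loqs and 0.65 for Sting. Rescaling to spike-ins gave 4232 calls among all 8722 genes, against 5490, with 3 among the 8 genes, 9 genes of the small RNA list and 4 of the mRNA decay list. The piRNA list gave 17 calls without the filter, 12 upward and 5 downward, and 3 downward calls where a mean level of 5 TPM was required, a setting in which fewer genes were tested and Dcr-1 could not be fitted. Without any single mex>PGRP-LE library it gave 3 upward and 3 downward calls, since tej and vret were then not tested. Leaving out single libraries gave between 5 and 6 calls among the 8 genes and between 5066 and 5409 calls in all.

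With the replicate number as a block, 4976 genes and 4 of the 8 passed. The labels do not say that a number is shared between groups, and the deviations of same-numbered libraries correlated between -0.23 and 0.57, so the numbers were not taken to pair the samples. Depth is unknown in TPM, so no counting error can be given for low levels such as those of Mov10 in controls and of Dcr-1.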
